A study of Mus musculus with 6 samples.

Results

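Microtubules are hollow fibres of paired alpha- and beta-tubulin, and the genes described here encode those tubulins, gamma-tubulin and the proteins that bind, stabilise or take apart the fibre. They were measured in mouse sciatic nerve at postnatal day 14, an age at which the Schwann cells that ensheath its axons lay down myelin. The members are all probes whose annotated gene symbol is a numbered alpha-, beta- or gamma-tubulin, a stathmin (Stmn1 to Stmn4), an end-binding protein (Mapre1 to Mapre3), a member of the Tppp family, or Mapt, Map1a, Map1b, Map1s, Map2, Map4, Map6, Map7 or Dcx. This rule found 34 of the 19057 genes named on the array, with 84 of its 45281 probes, and it used no measured value. The tubulin genes Tuba1c and Tubg2 were not analysed here. The brightness filter described below kept 39 of these probes, for 25 genes, and the other 9 genes had no tested probe.

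The study compared 3 arrays of mutants with 3 of littermate controls, hybridised with total RNA from nerves of both sexes. The mutant genotype joins a P0 Cre transgene to an altered Dicer gene. P0 is a myelin protein whose promoter is active in the Schwann cell lineage, and Dicer trims microRNA precursors to their mature length. The genotype label names the Dicer state as "F or N" without explaining it, and the labels used here give neither the alleles of the control littermates nor whether an array held 1 animal or a pool. Nothing in them says that the 3 samples of a group came from separate animals, so each p-value reflects only how far these samples spread, and part of that spread may be technical. The Cre acts only in some cells of the nerve, and in whole nerve fewer cells of a type and less RNA per cell cannot be told apart.

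Within a cell, alpha- and beta-tubulin are folded by chaperones, joined into dimers and added to the fibre's growing end, and gamma-tubulin starts new fibres at the centrosome. Mammals have several alpha and beta isotypes, which are nearly identical proteins used in different proportions by different cells. Stathmins bind free dimers and favour shrinkage, end-binding proteins ride on the growing end, and the structural microtubule-associated proteins (MAPs) and Tppp proteins bundle and stabilise the lattice. In myelinating Schwann cells microtubules carry membrane, messenger RNA and protein along the lengthening cell, and in dividing cells they form the mitotic spindle.

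The deposited normalized signals lay on a log2-like scale from 7.96 to 15.91, and each difference is mutant minus control on that scale, with the standard error (SE) of the limma fit. A probe was tested when it was among the 18420 with the highest mean over all arrays, for which that mean was at least 8.34, and called at a Benjamini-Hochberg adjusted p under 0.05. A gene is represented by its brightest tested probe unless another is named. Over the tested probes, correlations between arrays ran from 0.992 to 0.995 among controls, from 0.973 to 0.993 among mutants and from 0.912 to 0.942 between groups. The Schwann lineage marker Sox10 stood at 13.98 ± 0.119 in mutants and 13.94 ± 0.0229 in controls (SD, n = 3 each), and all 5 Schwann cell markers measured passed the filter. Sox10 was the only one of them not called. Mbp, Pmp22 and S100b were called lower, with differences of -1.33, -1.21 and -1.19, and Ngfr was called higher, at 3.42. Markers of skeletal muscle, a tissue next to the nerve, were measured at a mean level of 9.49 to 11.36 over 6 genes in mutants and 11.44 to 12.73 in controls, and 1 of the 6, Myh1, was called lower. With the replicate number as a block 3 of the 6 were called lower, Myh1, Tnni2 (difference -1.71, adjusted p = 0.013 in limma) and Ckm (-1.32, adjusted p = 0.0473).

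In the mutant nerves the beta-tubulin genes Tubb2b, Tubb4b, Tubb5 and Tubb6 rose, while the alpha-tubulin genes Tuba1a and Tuba1b showed no called change. Mapre1, which encodes the main end-binding protein EB1, the structural MAP genes Map1b and Map2 and the gamma-tubulin gene Tubg1 also rose. Stmn1, the most widespread stathmin, fell, as did Tppp3, Tuba8, Tubb4a, Mapre3, Map6 and Map7. The calls of Tubg1, Tubb4a and Map6 were lost with the replicate number as a block, which left 7 genes higher and 5 lower, and Map6 also had a probe called higher. Of the 25 tested genes limma called 8 higher and 7 lower, or 60% in all, against a background of 39.6% of the 10273 genes tested (22.0% higher and 17.6% lower). By probe, 22 of 39 were called, 14 higher and 8 lower, where 35.8% of all tested probes were called, 19.9% higher and 15.9% lower. The counts in this paragraph include Mapre3 and the dimmer tested probe of Tuba8. Both passed the filter only through the controls, where they were high, so they had to differ. The groups did not overlap for 15 of the 25 genes and 23 of the 39 probes, where 55.2% of all genes and 52.1% of all probes did not. The members' median difference was 0.03, with a median size of 0.26 regardless of sign, against 0.01 and 0.20 over all genes. With the added 2-fold threshold of the study's design, a difference of at least 1, 3 member genes were higher (Tubb6, Tubb2b and Tubb4b) and 0 lower, where 2.64% and 2.93% of all genes passed. By probe, 4 were higher and 0 lower at this size, against 2.05% and 2.44% of all probes.

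**Figure D1:**
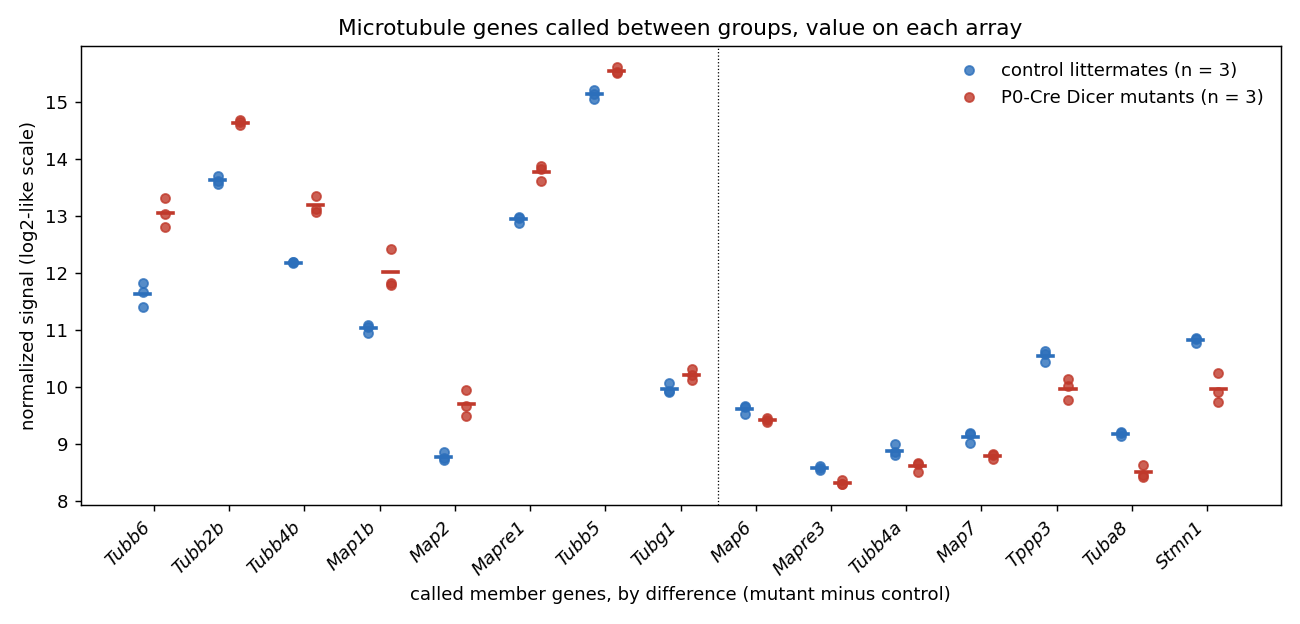
Normalized signal (log2-like scale, vertical axis) of the 15 called member genes on each array, with points for the 3 control (blue) and 3 mutant (red) arrays and bars for the group means. Genes are ordered by difference and the dotted line parts the 8 that rose from the 7 that fell, and the groups do not overlap for any of the 15.

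The beta-tubulin genes Tubb4b and Tubb5 and the end-binding gene Mapre1 rose, while the tubulin genes Tuba8 and Tubb4a fell. The promoters of these genes, which are some of the called members with an entry, are shown here. Each is the 250 bases before the annotated start of the gene in RefSeq's table for build GRCm38.p6, printed 5′ to 3′ on the gene's strand, with capitals for CCAAT or its reverse complement ATTGG. They lie at chr2:25224703-25224952 (minus strand), chr17:35838302-35838551 (minus strand), chr2:153741037-153741286 (plus strand), chr6:121210484-121210733 (plus strand) and chr17:57087601-57087850 (minus strand).
Tubb4b: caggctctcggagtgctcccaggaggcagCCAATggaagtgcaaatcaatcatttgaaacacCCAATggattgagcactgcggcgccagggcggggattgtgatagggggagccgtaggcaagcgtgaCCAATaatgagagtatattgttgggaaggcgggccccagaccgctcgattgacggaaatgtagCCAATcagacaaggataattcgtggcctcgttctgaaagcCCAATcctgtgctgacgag
Tubb5: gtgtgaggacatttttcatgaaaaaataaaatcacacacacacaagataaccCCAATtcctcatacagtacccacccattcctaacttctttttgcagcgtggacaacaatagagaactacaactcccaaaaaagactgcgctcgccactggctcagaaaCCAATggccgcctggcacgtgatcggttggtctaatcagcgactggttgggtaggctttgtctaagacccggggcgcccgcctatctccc
Mapre1: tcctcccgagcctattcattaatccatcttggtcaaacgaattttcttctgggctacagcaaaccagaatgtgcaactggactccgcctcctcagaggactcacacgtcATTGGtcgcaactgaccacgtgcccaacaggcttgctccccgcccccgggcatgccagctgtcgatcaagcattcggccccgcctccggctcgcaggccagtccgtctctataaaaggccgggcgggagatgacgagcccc
Tuba8: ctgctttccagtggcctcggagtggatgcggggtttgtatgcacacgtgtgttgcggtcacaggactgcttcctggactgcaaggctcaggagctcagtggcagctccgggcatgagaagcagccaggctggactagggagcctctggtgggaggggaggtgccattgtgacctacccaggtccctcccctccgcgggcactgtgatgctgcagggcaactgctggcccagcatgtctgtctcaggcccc
Tubb4a: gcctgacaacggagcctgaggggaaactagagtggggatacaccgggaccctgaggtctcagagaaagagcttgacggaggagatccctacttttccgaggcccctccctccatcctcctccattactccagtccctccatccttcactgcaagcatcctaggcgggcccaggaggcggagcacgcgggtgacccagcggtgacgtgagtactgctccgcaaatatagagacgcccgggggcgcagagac

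The CCAAT box is a common promoter element bound by the factor NF-Y. Searched on both strands, CCAAT was found 5 times in the Tubb4b window, 2 times in that of Tubb5 and 1 time in that of Mapre1, and not in those of Tuba8 and Tubb4a. Of all 32851 windows of this length in the table, 33.8% held CCAAT at least 1 time, 10.1% at least 2 times and 0.213% at least 5 times. Of the called members with an entry, 3 of the 5 that rose held it, and these are the 3 shown. Map1b and Map2, which also rose, did not hold it and are not shown. It was in 0 of the 4 that fell, which include Map7 and Mapre3, not shown. The shown promoters alone therefore make CCAAT and a rise look more closely tied than the called members do. Of the 7 uncalled tested genes with an entry 4 held it (Tuba3a, Tuba3b, Tuba1a and Map4, but not Tuba1b, Map1s and Tppp). A second motif, GGGCGG with its reverse complement CCGCCC, was in 32.7% of all windows. Among the shown genes it was found 1 time for Tubb4b, 2 times for Mapre1 and not for the other 3. Among the called genes not shown it was found 5 times for Map2, 1 time each for Map1b and Map7, and not for Mapre3. The uncalled tested genes Map4, Tuba1a, Tuba1b, Tuba3a and Tppp held it, and Tuba3b and Map1s did not. Both motifs were chosen with the members' values known, and these matches describe letters, not binding. Of the 34 genes, 24 had an entry in the table. Tubb2b, Tubb6, Tubg1, Stmn1, Tppp3 and Map6 had none.

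Beta-tubulins gave the largest rises among the members. Of 8 beta-tubulin genes on the array 5 were tested, of which 4 rose and 1 fell, with a median of 1.00. Tubb6, the beta isotype widespread in non-neural tissue, read 13.32, 13.04 and 12.82 in mutants and 11.83, 11.68 and 11.41 in controls. The gap between the lowest mutant and the highest control was wider than the range within either group, and the difference was 1.42 (SE 0.154, adjusted p = 7.12e-04 in limma). Of 6 markers of fibroblasts and perineurium 2, Lum and Col1a1, were called higher and 4 were not called. Among those 4 Slc2a1 had a negative difference, of -0.24. The mean level over the list was 13.79 to 14.16 in mutants and 13.51 to 13.67 in controls. The part of these cells in the rise of Tubb6 was not tested.

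Tubb2b, an isotype abundant in the developing nervous system, read 14.59, 14.68 and 14.66 in mutants and 13.56, 13.62 and 13.71 in controls on its brightest probe. The difference of 1.01 (SE 0.059, adjusted p = 5.14e-05 in limma) was many times the spread within either group. The 4 further tested probes of Tubb2b rose as well, by 0.92, 0.81, 1.04 and 0.68, with no overlap between groups on any of the 5. The remaining probe lay at 8.07, near the low end of the scale, and was not tested.

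Tubb4b, an isotype found in most tissues, read 13.14, 13.37 and 13.07 in mutants and 12.19, 12.19 and 12.18 in controls (difference 1.00, SE 0.0818, adjusted p = 2.01e-04 in limma). Its control arrays were the tightest of any called member, with an SD of 0.00616. Tubb5, the most general isotype of dividing cells, read 15.52, 15.62 and 15.53 in mutants and 15.22, 15.07 and 15.15 in controls. That rise of 0.41 (SE 0.062, limma adjusted p = 0.00282) was measured close to the top of the scale at 15.91.

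Tubb4a, which is best known from neurons and oligodendrocytes, moved the other way. It read 8.52, 8.68 and 8.65 in mutants and 9.00, 8.81 and 8.87 in controls, close to the dim end of the scale (difference -0.28, SE 0.0736, adjusted p = 0.0265 in limma). With the replicate block the call of Tubb4a did not hold (adjusted p = 0.0651), nor did it without control replicate 1 (0.0886) or 3 (0.0676). Tubb1, the platelet isotype, Tubb2a and the neuronal isotype Tubb3 were below the filter on all their probes, and Tubb3 stood at 8.26 in both groups.

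Of 6 alpha-tubulin genes on the array 5 were tested, of which 0 rose, 1 fell and 4 were not called by limma, with a median of -0.05. Tuba1b, a general isotype, read 15.60, 15.46 and 15.41 in mutants and 15.56, 15.36 and 15.39 in controls. The groups overlapped, and the difference of 0.05 had a 95% interval from -0.14 to 0.24, measured near the top of the scale. Tuba1a, the main alpha isotype of developing neural tissue, read 14.69, 14.39 and 14.12 in mutants and 14.24, 14.21 and 14.30 in controls on its brighter probe. It had differences of 0.15 (interval -0.18 to 0.47) and 0.14 (interval -0.13 to 0.41) on its 2 probes. Mutant replicate 1 was the highest array for both, and without it the brighter probe differed by 0.00316. Whether the alpha and beta genes differ in their change was not tested.

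Tuba8, a divergent alpha isotype, fell on both of its tested probes. The brighter read 8.64, 8.44 and 8.47 in mutants and 9.22, 9.20 and 9.15 in controls (difference -0.67, SE 0.0682, adjusted p = 5.02e-04 in limma). The other fell by 0.72 and its mutant mean of 8.30 lay below the filter, which it passed through the controls. Tuba8 is known from skeletal muscle as well as neural tissue. The mean level of the muscle markers was 11.36, 11.08 and 9.49 in mutant replicates 1 to 3 and 11.52, 12.73 and 11.44 in control replicates 1 to 3. Every mutant array lay below every control for this mean level, narrowly (11.36 in mutant replicate 1, 11.44 in control replicate 3), and for both tested Tuba8 probes. Taken singly, the markers Ckm, Myh1 and Tnni2 did not overlap between groups, but Acta1, Myh4 and Tnnt3 did. The order of the arrays within a group differed between the tested Tuba8 probes, so it was not compared with that of muscle. The part of muscle tissue in the fall of Tuba8 was not tested. Tuba3a and Tuba3b, near-identical copies that one probe may not part, were at -0.05 and -0.18 and were not called, and Tuba4a was below the filter. The probes of different tubulins may share target sequence in the same way.

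Tubg1 encodes gamma-tubulin, the nucleator of new microtubules. It read 10.14, 10.33 and 10.21 in mutants and 10.07, 9.91 and 9.94 in controls, so the groups were parted by less than the range within either. The difference of 0.25 (SE 0.0736, adjusted p = 0.0385 in limma) lost its call with the replicate block (adjusted p = 0.0816), with all probes tested (0.0639), with an intensity trend in the variance (0.0615), and without mutant replicate 2 (0.109) or 3 (0.0725) or control replicate 2 (0.125) or 3 (0.114). Of 8 tested genes for its partners in the gamma-tubulin ring and its anchors 4 rose and 0 fell, with a median of 0.26. Over all genes 22.0% were called higher and 17.6% lower. Cdk5rap2 and Nedd1, which tie the ring to the centrosome, rose by 0.43 (SE 0.0713) and 0.36 (SE 0.106), and Tubgcp2, a ring subunit, by 0.27 (SE 0.0488). Without mutant replicate 1 Nedd1 differed by 0.24, and its call was lost with all probes tested (adjusted p = 0.0851) and without mutant replicate 2 (0.0539) or any single control array (0.0946 to 0.109), while Cdk5rap2 was at 0.18 in the mean of its probes. The list held 2 higher genes when mutant replicate 2, control replicate 1 or control replicate 2 was left out, and 1 lower gene when mutant replicate 1 was.

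**Figure D2:**
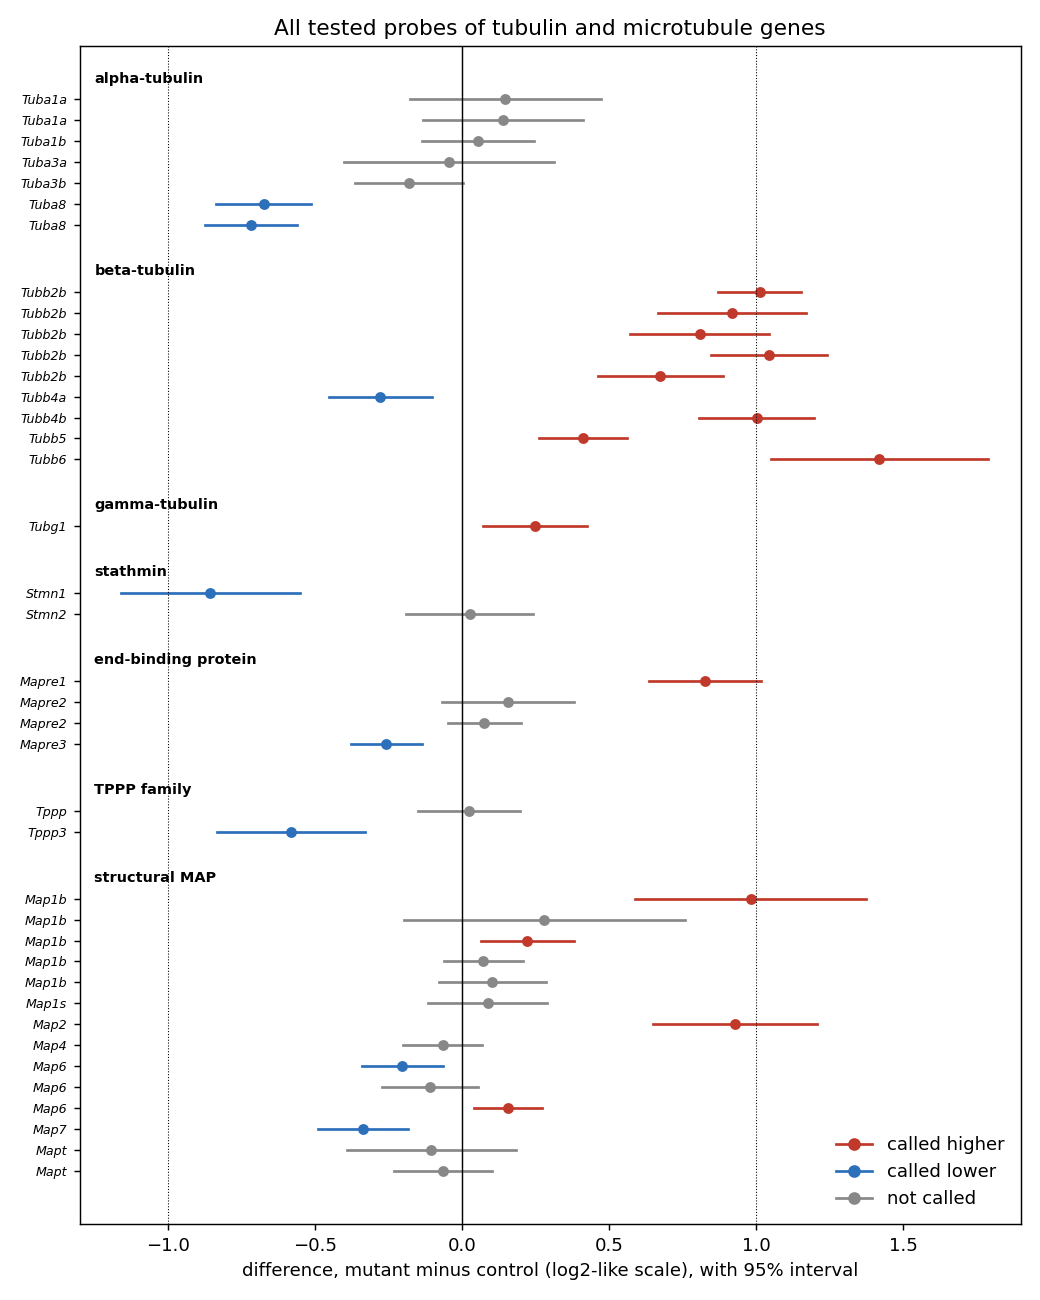
Difference of mutant minus control (log2-like scale, horizontal axis) for each of the 39 tested member probes, grouped by role, with the 95% interval of the limma fit as a line and dotted lines at a difference of 1 in either direction. Red marks the 14 probes called higher, blue the 8 called lower and grey the 17 not called, and the 5 probes of Tubb2b all lie to the right of 0.

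Stmn1 encodes stathmin, which holds free tubulin dimers away from the fibre and is abundant in dividing cells. It read 9.74, 9.92 and 10.26 in mutants and 10.78, 10.84 and 10.87 in controls. Every mutant array lay below every control, with a wider spread among the mutants (SD 0.264 against 0.0453), and the difference was -0.86 (SE 0.128, adjusted p = 0.00274 in limma). It ranged from -1.00 to -0.74 when arrays were left out in turn. Stmn2, the stathmin of growing axons, was not called, at 8.95 in mutants and 8.92 in controls, which differ by 0.03 with a 95% interval from -0.19 to 0.24. Stmn3 and Stmn4, both neuronal, were below the filter.

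Genes of the mitotic spindle went the other way from Stmn1. Of 19 tested spindle genes 18 rose and 0 fell, with a median of 1.05, against 22.0% of all genes called higher. Kif18b and Ckap2l had control means below the filter and were tested only through the mutants, where they were high, so they had to differ, and of the other 17 tested 16 rose. The midzone bundler Prc1 rose by 2.35, the spindle assembly gene Nusap1 by 1.92 and the chromosome motor gene Kif22 by 1.79. The mean level over all 22 genes of the list was 9.80 to 9.91 in mutants and 8.83 to 8.85 in controls. Mutant replicate 1 had the highest spindle level and the lowest Stmn1 value of the mutant arrays. That array was also the extreme one of the mutants for other genes, such as Map1b, where it was highest, and Tppp3, where it was lowest. Of 6 proliferation markers on the array 4 were tested and rose, and their mean level was 9.60 to 9.64 in mutants and 8.59 to 8.61 in controls, with Aurkb in both lists. Their part in the changes of Stmn1 and of the beta-tubulins was not tested.

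**Figure D3:**
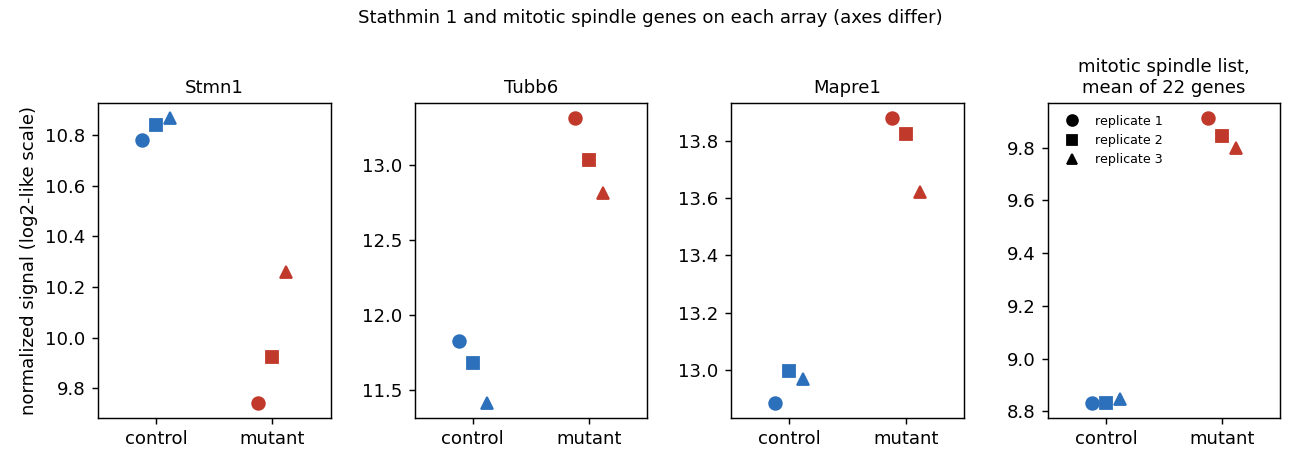
Normalized signal (log2-like scale, vertical axes that differ between panels and do not start at 0) of Stmn1, Tubb6, Mapre1 and the mean of the 22 mitotic spindle genes on each array, with blue for control, red for mutant and a symbol for each replicate number. In all 4 panels the groups are apart, with Stmn1 lower in mutants and the other 3 higher.

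End-binding proteins form a comet at the growing microtubule end and recruit other factors there. Mapre1 (EB1) read 13.88, 13.82 and 13.62 in mutants and 12.88, 13.00 and 12.97 in controls. The groups lay well apart, with a difference of 0.83 (SE 0.0802, adjusted p = 4.22e-04 in limma). Mapre2 (EB2) was not called on either of its probes, with differences of 0.16 (interval -0.07 to 0.38) and 0.08 (interval -0.05 to 0.20). Mapre3 (EB3), the neuronal and muscle form, read 8.30, 8.31 and 8.38 in mutants and 8.55, 8.59 and 8.62 in controls. It fell by 0.26 (SE 0.0508, limma adjusted p = 0.00869), at the dim end of the scale, and passed the filter through the controls. The mean level of the muscle markers was also lower in mutants, and the part of muscle tissue in the fall of Mapre3 was not tested.

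Other proteins of the growing end and of crosslinking moved in both directions. Of 12 tested genes 3 rose, 4 fell and 5 were not called, with a median of -0.17. Over all genes 22.0% were called higher and 17.6% lower. Nav1, a protein of growing ends, and Gas2l3, which links actin and microtubules, fell, with differences of -0.98 (SE 0.107) and -0.85 (SE 0.125). Dst, a large linker between filament systems, rose by 0.81 (SE 0.178), a call lost without control replicate 1 (adjusted p = 0.0509) or 2 (0.0532). With array weights 7 genes of this list were called lower.

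Tppp proteins bundle microtubules, and Tppp itself is a marker of oligodendrocytes. Tppp3 read 9.77, 10.02 and 10.14 in mutants and 10.59, 10.64 and 10.45 in controls, with no overlap and a difference of -0.58 (SE 0.105, adjusted p = 0.0061 in limma). Tppp differed by 0.02 (interval -0.15 to 0.20) and was not called, at 8.49 in mutants and 8.47 in controls. Tppp2, a testis form, was below the filter, at 8.07 and 8.08 on the brighter of its 2 probes.

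Structural MAPs line the fibre's wall, and of 9 such genes 7 were tested, of which 2 rose, 2 fell and 3 were not called, with a median of -0.07. Map1b, which is made early in axon growth and by immature glia, read 12.42, 11.80 and 11.83 in mutants and 11.09, 10.96 and 11.06 in controls on its brightest probe. Mutant replicate 1 was the highest array, and the difference was 0.98 (SE 0.164, adjusted p = 0.00435 in limma) with it and 0.78 without it. Its probes did not move alike. This probe is annotated to a cDNA clone, and the 4 others, annotated to the reference transcript and dimmer, were at 0.28, 0.22, 0.07 and 0.10, of which only the probe at 0.22 was called (limma adjusted p = 0.0394). The mean of the 5 probes rose by 0.33 (limma adjusted p = 0.02).

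Map2, best known from dendrites, read 9.96, 9.50 and 9.68 in mutants and 8.72, 8.75 and 8.87 in controls (difference 0.93, SE 0.117, adjusted p = 0.00132 in limma). That is the single tested probe of 9 on the array, and the other 8 lay between 8.04 and 8.24. Of 9 neuronal markers on the array 5 lay below the filter, the neurofilament gene Nefl and Snap25 among them. Of the 4 tested 0 rose and 1, Uchl1, was called lower (-0.25, a call lost without mutant replicate 1 or 2 or any single control array). The mean level of these 9 genes was 8.37 to 8.41 in mutants and 8.40 to 8.47 in controls. Markers this close to the dim end can show little, and the part of neurons in the rise of Map2 was not tested.

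Map7, which recruits the motor kinesin-1 to microtubules, read 8.82, 8.83 and 8.74 in mutants and 9.03, 9.18 and 9.19 in controls (difference -0.34, SE 0.0636, adjusted p = 0.00716 in limma). Map6, the cold-stable MAP known as STOP, had 3 tested probes that disagreed. The brightest, annotated to another transcript than the rest, read 9.39, 9.46 and 9.43 in mutants and 9.66, 9.54 and 9.68 in controls and fell by 0.20 (limma adjusted p = 0.0336). The second was not called, at -0.11, and the dimmest rose by 0.16 (limma adjusted p = 0.0429). Both calls were lost with the replicate block (adjusted p = 0.0716 and 0.0943). The fall of the brightest was also lost with a stricter filter (0.0551), with the variance trend (0.0654), without mutant replicate 1 (0.0519), 2 (0.068) or 3 (0.0694), without control replicate 1 (0.115) or 3 (0.105), and in the mean of the 3 probes (-0.05, adjusted p = 0.429). Map6 was the 1 member with probes called in opposite directions.

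Map4, the general MAP of non-neural cells, was at -0.07 (interval -0.20 to 0.07) on its 1 tested probe of 6, and Map1s at 0.09 (interval -0.11 to 0.29). Mapt, the axonal MAP tau, was at -0.10 (interval -0.39 to 0.18) and -0.06 (interval -0.23 to 0.10) on 2 tested probes of 5. Limma called none of these 3 genes. Map1a stood at 8.27 in mutants and 8.28 in controls, and the 4 probes of Dcx, the MAP of migrating neurons, lay between 8.06 and 8.26, all below the filter.

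The 45 untested member probes lay between 8.04 and 8.34, and their differences ran from -0.10 to 0.12. With all probes of the array tested, limma called 0 of the 45 (lowest adjusted p = 0.0795), and 3 had an unadjusted p under 0.05. No tested member passed the filter through the mutants alone. Tested probes with a mutant mean below the filter numbered 2, one of Tuba8 and that of Mapre3.

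Genes that fold, modify, cut and travel on microtubules were measured beside the members. For tubulin folding, 3 of 18 tested genes rose and 2 fell, with a median of 0.04, both shares under the background of 22.0% and 17.6%. The chaperonin subunit genes Cct8 and Cct3 rose by 0.69 (SE 0.133) and 0.63 (SE 0.0876), and the prefoldin gene Pfdn5 fell by 0.88 (SE 0.264), or by 0.55 without mutant replicate 1, the lowest array. Both falls were lost with all probes tested and without any single control array, where 0 genes were called lower, and array weights gave 5 genes higher.

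Of 12 tested genes of tubulin modification 3 rose and 2 fell, with a median of -0.02. The shares over all genes were 22.0% higher and 17.6% lower. Sirt2, a deacetylase of alpha-tubulin that is abundant in myelinating glia, read 9.92 ± 0.206 (SD, n = 3) in mutants and 11.83 ± 0.117 in controls (difference -1.92, SE 0.115, adjusted p = 5.87e-05 in limma). Of the 5 Schwann cell markers Mbp, Pmp22 and S100b were also called lower, with differences of -1.33, -1.21 and -1.19, and Ngfr, a marker of immature Schwann cells, was called higher, at 3.42. The mean level of the 5 markers, in which the rise of Ngfr offsets the falls, was 13.10 to 13.20 in mutants and 13.15 to 13.27 in controls. The part of Schwann cell state in the fall of Sirt2 was not tested. Atat1, which acetylates the same residue, fell by 0.30 (SE 0.0719), and was at -0.09 (adjusted p = 0.21) in the mean of its probes, and Ttll4, which adds glutamate side chains, rose by 0.49 (SE 0.0817). The call of Atat1 was also lost when mutant replicate 2 or a control array was left out. With the stricter filter, which left Atat1 untested, the list had 1 lower gene.

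Of 5 tested severing genes 2 rose and 1 fell, with a median of 0.16, against 22.0% of all genes called higher and 17.6% lower. Fign, which encodes fidgetin, rose from 9.27 ± 0.119 to 10.75 ± 0.338, by 1.48 (SE 0.167, limma adjusted p = 8.23e-04), and its relative Fignl1 by 1.05 (SE 0.117). Katnal1, a katanin subunit gene, was called lower at -0.19. It was no longer called under the replicate block (adjusted p = 0.0623), or whenever mutant replicate 2, mutant replicate 3 or a control array was left out. The stricter filter left Katnal1 untested. Dropping mutant replicate 1 or weighting the arrays gave 2 lower genes in this list.

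Of 26 tested genes of transport motors 3 rose, 6 fell and 17 were not called, with a median of -0.10. The background for this list and the next was 22.0% of all genes called higher and 17.6% lower. Kif1a, a motor for vesicles, went from 14.74 ± 0.0239 in controls to 13.24 ± 0.125 in mutants (difference -1.50, SE 0.0724, adjusted p = 2.27e-05 in limma). The dynein light chain gene Dynll1 and the kinesin-2 gene Kif3c fell, with differences of -0.91 (SE 0.204) and -0.82 (SE 0.0595). In the mean of its probes Kif1a was at -0.91, and Dynll1 missed the threshold when control replicate 1 (adjusted p = 0.0538) or 3 (0.0508) was left out. Genes called higher numbered 5 without mutant replicate 3, 6 with array weights and 1 without control replicate 1, and genes called lower 3 without control replicate 1 or 3. Among 20 other tested microtubule-associated genes 8 rose and 5 fell, with a median of -0.00169. Among the 8 that rose, Dclk1 passed the filter only through the mutants. Dpysl4 fell by 1.71 (SE 0.0838), or by 0.89 in the mean of its probes, and its relative Dpysl3, of the collapsin response mediator family that binds tubulin dimers, rose by 1.13 (SE 0.153). Mid1ip1, which stabilises microtubules with its partner Mid1, fell by 1.08 (SE 0.0706). The stricter filter left 3 genes of this list called lower.

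**Figure D4:**
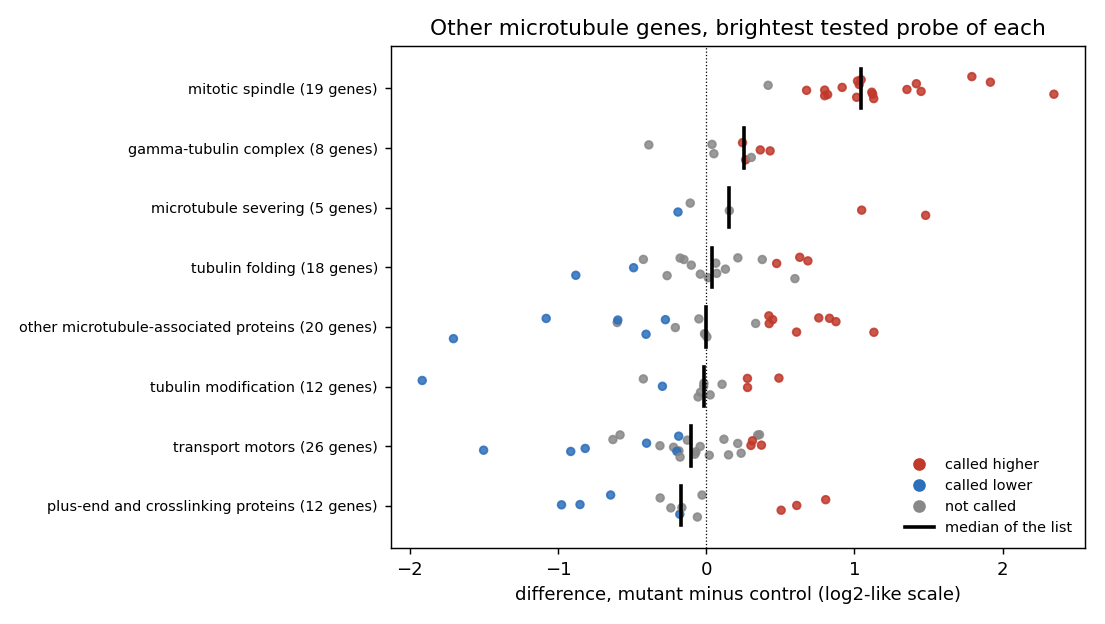
Difference of mutant minus control (log2-like scale, horizontal axis) for each tested gene of 8 lists of other microtubule genes, by brightest probe, with red for genes called higher, blue for genes called lower, grey for those not called and a black bar for each list's median. The mitotic spindle list lies to the right, with a median of 1.05, and the other 7 medians lie between -0.17 and 0.26.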

How the data were processed

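Total RNA of 3 mutant and 3 control nerve samples was hybridised to Illumina Mouse WG-6 version 2 arrays. The deposited values are on a log2 or log2-like scale. Per the labels' design text, the authors used limma and RMA normalization, while lumi 1.8.3 comes from the submitters' processing notes. The sources do not settle between plain log2 and the variance-stabilising transform of lumi, on which differences among dim probes understate the log2 fold change. That text also calls the material cultured cells, whereas the sample labels give sciatic nerve.

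The authors kept 18420 probes by detection, per the design text, and the 18420 brightest by mean over all arrays stood in for them here. Probes were named from the platform annotation: 34885 had 1 symbol, 18 several and 10378 none. All 84 member probes matched the RefSeq gene table, with 0 symbols changed. The mutant and control arrays were fitted with lmFit and eBayes of limma 3.58.1 (R 4.3.3), with Benjamini-Hochberg adjustment across the tested probes. The step was tested on simulated data.

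Titles give both groups replicate numbers 1 to 3. Deviations of same-numbered arrays from their group means correlated at 0.165, 0.155 and 0.224. These values are weak and were not set against differently numbered arrays, and the titles do not say that the numbers pair the samples. The main fit used no block, and a fit with that block is an alternative. Further alternatives changed the filter, variance model, array weights, scaling, probe choice and threshold, or left out each array. Precision is limited by having 3 arrays a group.

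The members and lists were chosen with earlier results of these data known. Every member gene is named. Of each list, up to 3 called genes with the largest difference are named. A further call is named where a limit turns on it.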

Additional observations from a re-analysis of the deposited data

How the results depend on the processing

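Of the 15 called member genes 12 kept direction and call in every alternative run on them other than the 2-fold threshold, and Tubb4a, Tubg1 and Map6 did not. All 10 uncalled genes stayed uncalled. With the 2-fold threshold, which asks for more by construction, genes called higher went from 8 to 3 and lower from 7 to 0, probes from 14 to 4 and from 8 to 0, and genes of the 8 pathway lists from 44 to 16 and from 20 to 4. The stricter filter of 12000 probes called 4 member genes and 4 member probes lower, where Tubb4a and Mapre3 were no longer tested. With arrays left out in turn, member genes called higher numbered 7 to 8 and lower 5 to 7, and list genes called lower 11 to 29, with 11 without control replicate 1, 12 without control replicate 2 and 11 without control replicate 3, and the cause was not tested. The replicate block changed the calls of Tubb4a, Tubg1 and Map6 and of no other member gene, and gave 7 genes higher and 5 lower. Centring on the tested probes changed nothing, since all arrays share that median, and a shift to a median deviation of 0, added after seeing the data, changed no member gene's call. Small uncalled differences turned sign when 1 array was left out: those of Tppp ran from -0.022 to 0.084, of Tuba1b from -0.00094 to 0.12, of Tuba3a from -0.16 to 0.073 and of Stmn2 from -0.052 to 0.085. Tuba1b was also at -0.0059 with array weights. Signal over background limits the dim members Tubb4a, Mapre3, Map2, Map6, Map7 and Tuba8, and nearness to the top of the scale limits Tuba1b and Tubb5.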

Other observations

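Other tubulin genes outside the rule lay near the dim end of the scale. Tubd1, which encodes delta-tubulin of the centriole, differed by 0.07 (SE 0.0508) and 0.04 (SE 0.0526) on its 2 tested probes and was not called. Both probes of Tube1, epsilon-tubulin, were below the filter and not tested. The brighter read 8.44, 8.42 and 8.33 in mutants and 8.20, 8.25 and 8.27 in controls, without overlap, as for 52.1% of all tested probes. The other overlapped, at a mean of 8.11 in mutants and 8.08 in controls. Tubal3 was at 8.10 in mutants and 8.13 in controls.

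Kinase genes that act on MAPs were looked at after the members' values were seen. Cdk5r1, the activator of the tau kinase Cdk5, read 8.64, 8.59 and 8.68 in mutants and 8.89, 8.99 and 9.01 in controls (difference -0.32, SE 0.0556, adjusted p = 0.00485 in limma). Cdk5 itself differed by -0.04 (SE 0.0531) and the tau kinase Gsk3b by 0.15 (SE 0.0735) on its brighter probe, and neither was called.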
